A study of Mus musculus with 2 samples.

Results

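Tight junctions seal the space between neighbouring epithelial or endothelial cells, and claudins are the membrane proteins that form their strands and set which ions and solutes pass. Each tissue uses its own mix of claudins, and in the lung this mix keeps the airspaces dry and the vessels closed. EP300 is an acetyltransferase and coactivator that transcription factors bring to enhancers and promoters, so its binding sites mark candidate regulatory DNA near such genes. Here 31 claudin and junction genes were examined, of 21853 protein-coding genes annotated. The list is one of gene family and role and holds 20 claudins, 3 proteins of the occludin family, 3 junctional adhesion molecules, 4 proteins of the cytoplasmic plaque and E-cadherin. The claudins were divided by textbook knowledge into 5 of lung epithelium and endothelium (Cldn18, Cldn3, Cldn4, Cldn10 and Cldn5), called lung claudins below, and 15 others known mainly from other organs or from many epithelia.

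ChIP-seq, in which chromatin bound by a protein is recovered with an antibody and sequenced, was done for EP300 on whole lungs of the B6NCrl strain at postnatal day 0. No treatment or altered allele is named in the labels, and the sex was not collected. The 2 libraries form 1 group, which leaves no conditions to compare. They are numbered as biological replicates but point to a single donor and biosample, and their spread may therefore be only technical. In whole lung, a site bound in few cells and a site weakly bound in many cannot be told apart. Read counts were not part of the lists, and the depth of each library is unknown. Values refer to the authors' optimal set of 43988 reproducible peaks on mm10 unless a library is named, and a library is represented by its own strongest 43988 peaks. A peak was assigned to the gene whose annotated start was nearest to its summit, up to 100 kb away. Such an assignment is by distance alone. As a check of the tissue, 14 of 16 markers of alveolar, airway and endothelial cells had a peak, with a median of 4 peaks and up to 18, and Foxj1 and Scgb3a2 had 0. Of 5 markers of other organs 2 had a peak, Mbp with 10 and Vil1 with 1, so that this share was near the 46.9% of all protein-coding genes with a peak.

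The sequences at the strongest peaks of the lung claudins, and of the 3 other genes of the list with most peaks (ties going to the stronger), are shown because the results turn on these sites. Each line gives the 100 bases of the plus strand around the summit, 5′ to 3′, and capitals mark matches to any of 14 short consensus sequences searched on both strands.
Cldn18 (chr9:99702396-99702495): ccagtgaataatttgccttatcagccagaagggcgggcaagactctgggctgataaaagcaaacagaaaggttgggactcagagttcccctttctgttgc
Cldn3 (chr5:134989915-134990014): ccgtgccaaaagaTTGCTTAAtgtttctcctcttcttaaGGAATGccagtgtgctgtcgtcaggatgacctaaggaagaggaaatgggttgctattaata
Cldn4 (chr5:134955623-134955722): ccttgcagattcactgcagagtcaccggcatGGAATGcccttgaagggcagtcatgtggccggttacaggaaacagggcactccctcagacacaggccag
Cldn10 (chr14:118884331-118884430): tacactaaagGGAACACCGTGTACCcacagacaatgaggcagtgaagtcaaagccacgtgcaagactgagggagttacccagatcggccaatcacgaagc
Cldn5 (chr16:18733270-18733369): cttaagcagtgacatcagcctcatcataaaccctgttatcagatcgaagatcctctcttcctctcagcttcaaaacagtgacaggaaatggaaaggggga
Tjp1 (chr7:65430516-65430615): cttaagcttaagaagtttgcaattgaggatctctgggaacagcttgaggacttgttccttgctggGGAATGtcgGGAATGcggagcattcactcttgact
Cdh1 (chr8:106616084-106616183): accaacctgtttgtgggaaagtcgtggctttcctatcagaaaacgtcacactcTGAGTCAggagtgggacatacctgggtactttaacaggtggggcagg
Cldn23 (chr8:35898264-35898363): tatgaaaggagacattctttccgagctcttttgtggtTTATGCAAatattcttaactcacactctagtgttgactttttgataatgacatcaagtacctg
The Cldn18 site lay in an intron of the gene, 7.56 kb downstream of its nearest start, and the Cldn3 site lay 3.75 kb downstream in intergenic DNA beyond the gene's end. The Cldn4, Cldn5 and Cldn23 sites were intergenic, 8.74 kb, 43.5 kb and 71.8 kb upstream. The Cldn10 site lay 29.6 kb downstream of a Cldn10 start but in an intron of the neighbouring gene Dzip1. The Tjp1 and Cdh1 sites lay in introns of their own genes. The match at the Cldn10 site is a full glucocorticoid receptor consensus, which 1.45% of all 43972 peaks on the chromosomes held. GGAATG, bound by TEAD factors, was found in the Cldn3 and Cldn4 sites and at 2 places in the Tjp1 site, and 11.7% of all peaks held it. The Cdh1 site held TGAGTCA, a form of the AP-1 site, found in either form in 5.94% of all peaks. The Cldn3 and Cldn23 sites held a C/EBP consensus, TTGCNNAA, found in 8.70% of all peaks, and the strongest Cldn18 and Cldn5 sites held no match. A match describes the letters in the window and does not show which factor was bound.

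At least 1 peak was assigned to 22 of the 31 genes (71.0%), beside 46.9% of all protein-coding genes. The 31 genes held 132 peaks, with 142 in library 1 and 132 in library 2, and a median of 3 peaks per gene beside a median of 0 over all genes. Peaks were unevenly spread: 11 genes had at least 5 peaks, 11 had 1 to 4 and 9 had 0. A count of at least 5 was reached by 10.9% of all genes. Tjp1 alone held 28.0% of the 132 peaks, and without it the mean number fell from 4.26 to 3.17 peaks per gene, beside 1.68 over all genes. A promoter peak, with its summit within 1 kb of an annotated start, was found at 10 of the 31 genes (32.3%), beside 21.5% of all genes. The share of the peaks themselves that lay within 1 kb of a start was 10.6%, and 13.7% without Tjp1, beside 15.9% of all peaks assigned to a gene. By position, 76 of the 132 peaks lay in introns, 52 between genes, 3 in untranslated regions and 1 in another exon.

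**Figure D1:**
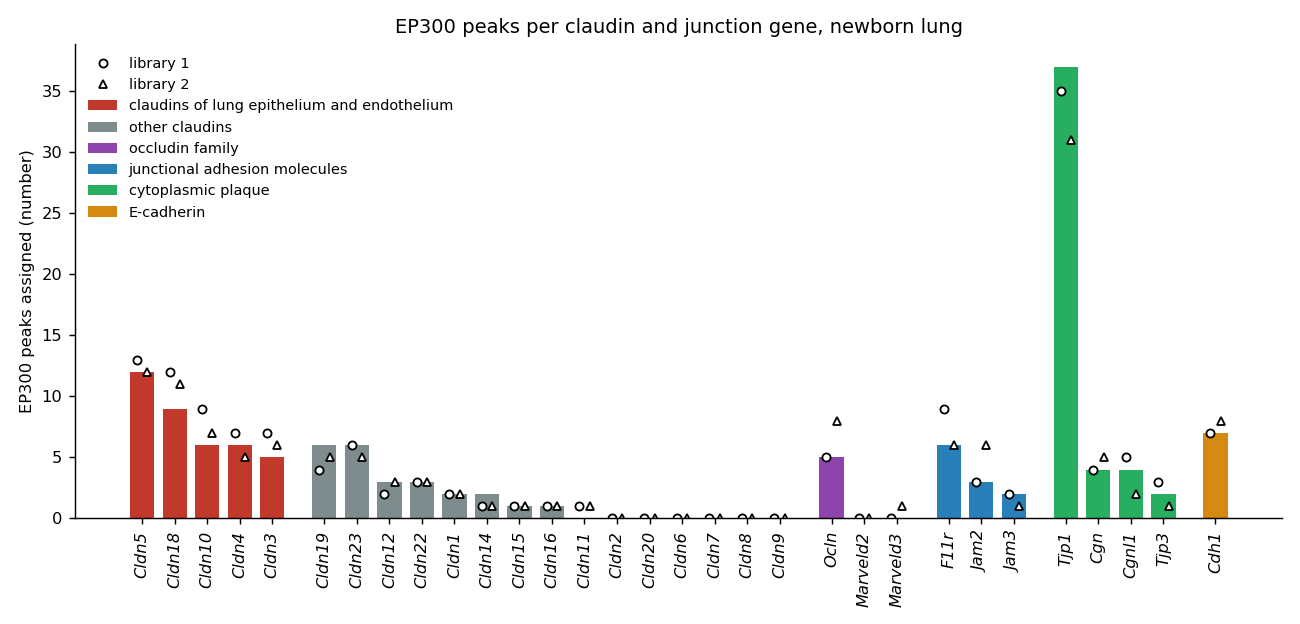
Bars give the number of EP300 peaks of the optimal set assigned to each of the 31 genes, circles the number in library 1 and triangles that in library 2, with genes grouped by role. Every lung claudin has 5 to 12 peaks, the other claudins 0 to 6, and Tjp1 stands above all with 37.

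All 5 lung claudins had peaks, 38 in all, and 4 of the 5 had a promoter peak, Cldn10 being the exception. Their median was 6 peaks per gene, with 9 in library 1 and 7 in library 2, and their mean was 7.6, with 9.6 and 8.2 in the libraries (8.90 ± 0.99, SD, n = 2). Of the 15 other claudins 8 had a peak (53.3%, near the 46.9% of all genes) and 3 a promoter peak (20%, near the 21.5% of all genes), with 24 peaks in all. The 3 were Cldn12, Cldn15 and Cldn23. Their median was 1 in the optimal set and in each library, and their mean was 1.6, with 1.4 and 1.47 in the libraries (1.43 ± 0.047, SD, n = 2). The order of the class means was the same in each library. Among genes, the SD was 2.88 peaks in the lung claudins and 2.10 in the others. The classes overlapped gene by gene, since Cldn19 and Cldn23 had 6 peaks each, more than the 5 of Cldn3. Because genes are not replicates and there was 1 group, no test was made of this difference.

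Genes differ in how much DNA lies nearest to their starts, here called the territory, and a wide territory collects more peaks. The lung claudins had a median territory of 90.8 kb and the other claudins one of 40.3 kb. Per 100 kb of territory the lung claudins held 9.25 peaks, with 11.7 in library 1 and 9.98 in library 2. The other claudins held 2.64, with 2.31 and 2.42 in the libraries, and all genes held 2.29. Counted this way too, the lung claudins as a class lay above the other claudins in both libraries, and the other claudins as a class lay near the level of all genes. All 5 lung claudins exceeded the median of genes of like territory, taken as the same of 10 equal groups by territory. So did 7 of the 15 other claudins (46.7%) and 38.0% of all genes. These medians were low, at 0 peaks for Cldn3 and Cldn4 and 1 for Cldn18, Cldn10 and Cldn5. Within the lung claudins the density ran from 4.23 per 100 kb at Cldn10, which is above the level of all genes, to 26.2 at Cldn4. Within the other claudins it ran from 0, at the 7 genes without a peak, to 24.5 at Cldn19. The classes thus overlapped in density gene by gene, and Cldn19 lay above every lung claudin but Cldn4.

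**Figure D2:**
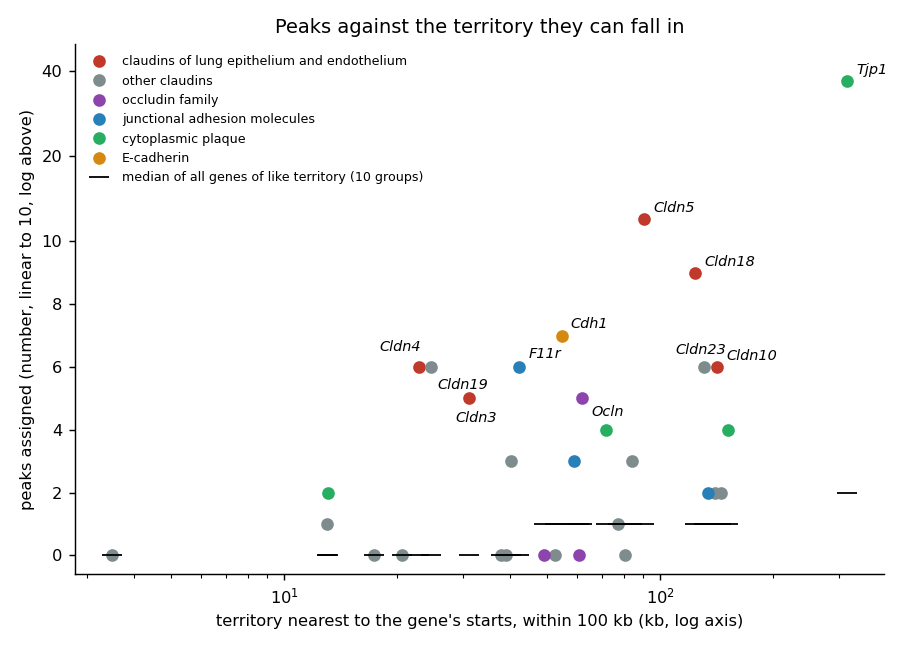
Each point is 1 of the 31 genes, with its territory in kb on a log axis and its number of peaks on an axis that is linear to 10 and logarithmic above; dashes give the median of all genes in the same of 10 equal groups by territory. The 5 lung claudins all sit above the dash at their territory, as do 7 of the 15 other claudins.

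The strength of the peaks and their presence in each library were described next. Signal is the authors' own value per peak and serves here only to rank and describe peaks. The median signal was 73.1 for the 38 lung claudin peaks, 48.1 for the 24 peaks of other claudins and 48.5 for all optimal peaks. A summit within 100 bp was found in the strongest peaks of both libraries for 33 of the 38 lung claudin peaks (86.8%), 14 of the 24 others (58.3%) and 63.0% of all optimal peaks. The difference between the claudin classes was in library 1. Its strongest peaks matched all 38 lung claudin peaks, 15 of the 24 others (62.5%) and 78.8% of all optimal peaks. In library 2 the numbers were 33 of 38 (86.8%) and 21 of 24 (87.5%), beside 74.4% of all optimal peaks, and no test was made. In the complete library lists, all 38 lung claudin peaks and 21 of the 24 others (87.5%) had such a summit in both. This was so for 85.9% of all optimal peaks. The strongest peak was among the 2000 strongest of the set for 4 of the 5 lung claudins, Cldn4 being the exception. This was so for 1 of the 15 other claudins, Cldn23. The like share of all genes was not computed, and a gene with more peaks has more chances to hold a strong one.

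Cldn18 encodes the claudin best known from alveolar epithelium and, in another form, from stomach. It had 9 peaks, with 12 in library 1 and 11 in library 2. The strongest, at rank 1969 of the set with a signal of 164, had a signal of 97.1 (rank 1751) in library 1 and 64.3 (rank 2699) in library 2. A second of almost the same signal, 159, lay 24.7 kb downstream of the start and beyond the gene's end, with a signal of 85.5 in library 1 and 70.1 in library 2. These 2 stood apart, since the other 7 peaks had signals from 34.9 to 67.4. A group of 5 peaks, none more than 10 kb from the next, spanned 8.70 kb from the promoter into the gene.

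The gene has 2 RefSeq starts 7.20 kb apart, one for the A1 form known from lung and one, further upstream, for the A2 form known from stomach. A peak of signal 60.3 had its summit at position -55 from the A1 start. Library 1 had a summit at position -47, with a signal of 29.3, and library 2 one at position -87, with a signal of 32.4. At the A2 start no summit lay within 1 kb in the optimal set, in the pooled list of 300000 peaks or in the complete list of either library. The nearest optimal summit to it was at position -2918. Both libraries thus placed a promoter peak at the start of the lung form and none at that of the stomach form. The 250 bases before the A1 start are shown because they hold this summit; they are RefSeq sequence on GRCm38.p6, minus strand, with the summit and 10 bases on either side in capitals.
Cldn18 A1 upstream (chr9:99710064-99710313): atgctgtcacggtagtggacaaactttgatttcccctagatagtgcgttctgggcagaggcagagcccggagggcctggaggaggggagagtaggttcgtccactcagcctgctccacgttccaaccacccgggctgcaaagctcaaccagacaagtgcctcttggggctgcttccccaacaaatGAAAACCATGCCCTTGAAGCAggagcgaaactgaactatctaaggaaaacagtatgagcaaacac
None of the 14 consensus sequences was found in these 250 bases or in the 250 before the A2 start.

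**Figure D3:**
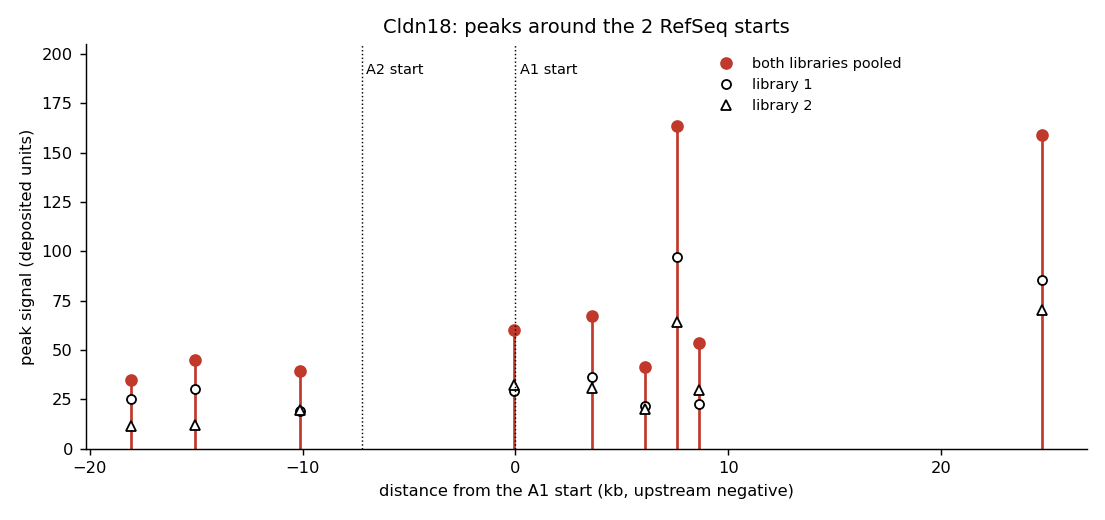
Signal of the 9 Cldn18 peaks against distance from the A1 start in kb, upstream negative; filled points are the pooled signal and open symbols the matched peak in each library, and dotted lines mark the starts. One peak stands at the A1 start in both libraries, none within 1 kb of the A2 start, and the highest 2 lie downstream of both starts.

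Cldn3 and Cldn4, claudins of alveolar type 2 and airway epithelium, are neighbours on chromosome 5 with their starts 39.3 kb apart. Cldn3 had 5 peaks, with 7 in library 1 and 6 in library 2, and Cldn4 had 6, with 7 and 5. The strongest Cldn3 peak had a signal of 185 (rank 1382), with 99.3 (rank 1620) in library 1 and 87.2 (rank 1165) in library 2. The strongest Cldn4 peak was weaker, with a signal of 104 (rank 6028), 58.5 (rank 6302) in library 1 and 46.1 (rank 5892) in library 2. Both genes had 2 promoter peaks, with summits 0.102 and 0.304 kb upstream of the Cldn3 start and 0.133 and 0.947 kb upstream of the Cldn4 start, so that promoter and distal binding occurred at each. The 2 Cldn3 promoter peaks overlapped each other, and with overlapping peaks merged Cldn3 had 4 peaks. Together the pair held 11 peaks in territories of 31.1 and 22.9 kb. Assignment is uncertain here: 3 of the 6 Cldn4 peaks and 1 of the 5 Cldn3 peaks had another gene's start less than 2 times as far away. For the strongest Cldn4 peak and the next one this gene was Mettl27, at 15.2 and 3.99 kb from the summits. For the weakest Cldn4 peak it was Cldn3, at 22.4 kb, and for the Cldn3 peak it was Cldn4, at 23.9 kb. A group of 9 peaks, none more than 10 kb from the next, ran over 31.5 kb through the Cldn4 side of the pair and took in peaks nearest to Cldn3, Cldn4 and Mettl27. Of all 22938 such groups in the genome 98.7% had fewer peaks, and the median group was 1 peak.

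Cldn10 encodes an ion-selective claudin known in the lung from airway secretory cells. It had 6 peaks, with 9 in library 1 and 7 in library 2, and no promoter peak in either. The strongest, in the Dzip1 intron, had a signal of 183 (rank 1415), with 107 (rank 1291) in library 1 and 75.5 (rank 1733) in library 2. The Dzip1 start lay 38.8 kb from this summit, against 29.6 kb for the Cldn10 start, so that the nearest gene is not a clear choice here. The next had a signal of 93.2 and lay 6.35 kb upstream of the nearer start, in an intron of the longer form. RefSeq gives Cldn10 an upstream a start and a downstream b start 67.1 kb apart. All 6 peaks lay nearer to the b start, and none within 1 kb of either. Without the internal start, with each gene given only the start of its gene record, 3 peaks were assigned to Cldn10.

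Cldn5 encodes the main claudin of endothelium, where it closes the junctions of vessels. With 12 peaks, 13 in library 1 and 12 in library 2, it had the most of any claudin listed, and 97.6% of all genes had fewer. All 12 lay upstream in intergenic DNA, from 0.847 to 71.4 kb from the start. There were 4 within 15 kb, 3 between 15 and 40 kb and 5 further than 40 kb. The strongest, 43.5 kb upstream, had a signal of 237 (rank 617), with 152 (rank 368) in library 1 and 83.1 (rank 1324) in library 2. The next 2 were also distal: signals of 180 at 71.4 kb and 155 at 53.2 kb. The promoter peak, 0.847 kb upstream, had a signal of 128, with 83.7 in library 1 and 43.9 in library 2. The 5 peaks further than 40 kb had signals from 80.1 to 237, and the 4 within 15 kb from 37.6 to 136. Those between had signals from 33.2 to 75.3. Strong peaks were thus found both near the start and far from it, and the weakest lay within 40 kb. Another gene's start was less than 2 times as far away for 6 of the 12, Cdc45 being next for the strongest, at 78.3 kb.

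**Figure D4:**
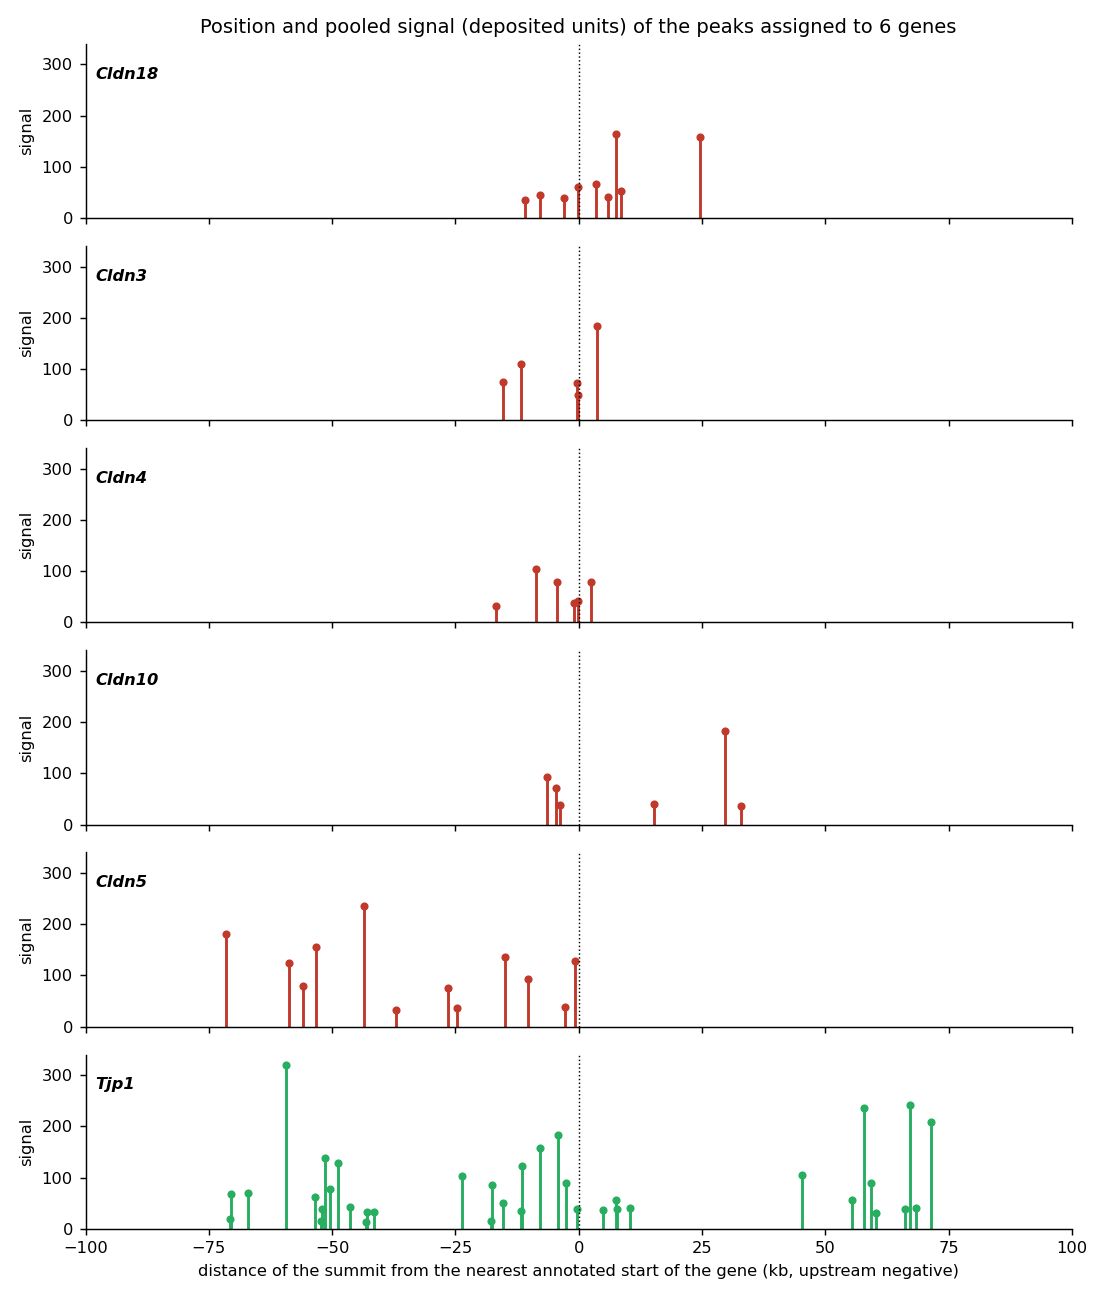
Each line is 1 peak of the optimal set, placed by its distance in kb from the nearest annotated start of the gene (upstream negative) with its pooled signal as height; Tjp1 has distant starts, so that its left and right sides are measured from different starts. All Cldn5 peaks lie upstream, the Cldn3 and Cldn4 peaks lie within 16.8 kb of the starts, and Tjp1 has peaks on both sides, up to a signal of 321.

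Among the other claudins 2 genes had counts like those of the lung claudins. Cldn19, known from kidney tubule where it acts with Cldn16, had 6 peaks in a territory of only 24.5 kb, with 4 in library 1 and 5 in library 2. Its strongest peak had a signal of 132 (rank 3468), 79.4 (rank 3059) in library 1 and 52.8 (rank 4383) in library 2, and lay 8.15 kb downstream of the start, past the gene's end. A second, of signal 104, lay in its untranslated region, and 2 of the others lay in introns of the neighbouring gene P3h1. Cldn19 had no promoter peak. Cldn23, a claudin of many epithelia, had 6 peaks, with 6 in library 1 and 5 in library 2 but 3 in the conservative set. Its strongest peak had a signal of 202 (rank 1027), 117 (rank 950) in library 1 and 87.5 (rank 1153) in library 2, and stood alone 71.8 kb upstream, with Gm19410 the next gene at 133 kb. The other 5 were weak, with signals from 26.3 to 36.3.

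The remaining claudins had few peaks. Cldn12, which many tissues express, had 3 (2 and 3 in libraries 1 and 2), of which 2 were promoter peaks. These 2 overlapped each other and had signals of 71.0 and 17.2. Cldn22 had 3 (3 and 3), all in introns of Wwc2 and with the Cldn24 start almost as near, so that their link to Cldn22 is weakly founded. Cldn1, essential for the skin barrier, had 2 (2 and 2), 55.4 and 90.1 kb from its start, and Cldn14, known from inner ear and kidney, had 2 (1 and 1) that overlapped each other. Cldn15, a gut claudin, had 1 promoter peak with a signal of 71.8 (1 and 1), and Cldn16, a kidney claudin, had 1 (1 and 1) of signal 53.9. The complete list of library 1 had no summit within 100 bp of the Cldn15 peak, so its own Cldn15 promoter peak had a different summit. Cldn2, Cldn6, Cldn7, Cldn8, Cldn9, Cldn11 and Cldn20 had 0, although Cldn11, the claudin of myelin and testis, had 1 in each library alone. Cldn7 belongs to many epithelia, and its territory was only 17.3 kb; without the nearest-gene condition, 14 peaks lay within 100 kb of it. Cldn6 and Cldn9 are neighbours with territories of 3.48 and 20.5 kb. For Cldn20 no peak was assigned even in the pooled list of 300000, in a territory of 37.8 kb. A gene with 0 has no peak in this set, which does not show that EP300 is absent there, since the depth is unknown.

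Occludin, the tetraspan protein that lines the strands beside claudins, is encoded by Ocln, which had 5 peaks, with 5 in library 1 and 8 in library 2. Its strongest peak had a signal of 209 (rank 923), 125 (rank 759) in library 1 and 83.4 (rank 1310) in library 2, and lay 23.4 kb upstream in intergenic DNA. The related gene Marveld2, which encodes tricellulin of tricellular corners, starts 40.6 kb from the same summit and had 0 peaks. Marveld3 also had 0, with 0 in library 1 and 1 in library 2. The 4 strongest Ocln peaks had signals from 101 to 209, and none of the 5 was in the promoter.

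The junctional adhesion molecules are immunoglobulin proteins of the same junctions. F11r, encoding JAM-A, had 6 peaks, with 9 in library 1 and 6 in library 2. Its strongest peak, in an intron 15.5 kb downstream, had a signal of 108 (rank 5557), 68.9 (rank 4398) in library 1 and 37.9 (rank 8724) in library 2, and its promoter peak, 0.026 kb upstream, had a signal of 68.0. Jam2 had 3 (3 and 6 in the libraries), all inside the gene and none in the promoter, up to a signal of 99.1. Jam3 had 2 (2 and 1), with signals of 40.9 and 34.7. The order from F11r to Jam3 held in the optimal set, but F11r and Jam2 had 6 peaks each in library 2.

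Tjp1 encodes ZO-1, the scaffold that ties claudins and occludin to actin. It had 37 peaks, with 35 in library 1 and 31 in library 2, more than 99.9% of all genes. All lay inside the gene, which is 232 kb long, and 36 lay between its starts, which are 156 kb apart. The gene's territory is wide, at 315 kb, but the density of 11.7 per 100 kb was also above the 2.29 of all genes, and genes of like territory had a mean of 4.68 peaks. Its strongest peak, at rank 186 of the set, was the strongest of all 132, with a signal of 321, 171 (rank 217) in library 1 and 147 (rank 179) in library 2. In all 4 Tjp1 peaks were among the 1000 strongest of the 43988 peaks of the set. The 132 peaks of the list held 6 of these 1000, the remaining ones being the strongest of Cldn5 and Ocln. Runs of 14, 11 and 8 peaks, none more than 10 kb from the next, spanned 29.1, 31.6 and 16.0 kb of the gene. The promoter held 1 weak peak, of signal 39.0, at the proximal start. The count rests on that start: with each gene given only the start of its gene record, 16 peaks were assigned.

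The other plaque proteins had fewer. Tjp3, encoding ZO-3, had 2 peaks (3 and 1 in the libraries), both in promoters and with signals of 38.6 and 37.9. Cgn, encoding cingulin, had 4 (4 and 5) within 5.27 kb of its starts, and Cgnl1, encoding paracingulin, had 4 (5 and 2) spread out to 80.8 kb. Neither had a promoter peak in the optimal set, and the strongest had signals of 63.3 and 61.8. E-cadherin, the adhesion protein of the epithelial belt below the tight junction, is encoded by Cdh1, which had 7 peaks, with 7 in library 1 and 8 in library 2. All were in its introns, from 7.83 to 35.7 kb downstream of the start, and none was in the promoter. Its strongest peak had a signal of 136 (rank 3233), 92.4 (rank 2026) in library 1 and 41.5 (rank 7308) in library 2. A run of 6 of the 7 peaks, none more than 10 kb from the next, covered 12.5 kb.

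The DNA at the peak centres of the list was compared with that of all optimal peaks. At least 1 of the 14 consensus sequences was found in 67 of the 132 central windows of 100 bases. The like share of all peaks was not computed, so this number cannot be read as particular to the list. The TEAD sequence GGAATG was the most frequent, in 21 peaks (15.9%, beside 11.7% of all peaks), followed by the AP-1 forms TGACTCA and TGAGTCA in 12 (9.09%, beside 5.94%). The forkhead sequence TGTTTAC and the ETS sequence CAGGAAG, as bound by ERG, were each found in 8 peaks (6.06%), beside 5.35% and 10.4% of all peaks. Tjp1 held 4 of the 8 forkhead matches, and without its peaks the forkhead share was 4.21%, below that of all peaks. The TEAD share without Tjp1 was 14.7% and the AP-1 share 9.47%, both still above those of all peaks. For the C/EBP sequence TTGCNNAA the number was 6 (4.55%, beside 8.70%), and for the STAT sequence TTCCNNGAA it was 1 (0.76%, beside 4.09%). AACAAAG, as bound by SOX factors, was found in 7 (5.30%, beside 3.66%), the GATA sequence AGATAAG in 6 (4.55%, beside 3.23%) and the NKX2 sequence CACTTGA in 5 (3.79%, beside 3.13%). CCGGAAG, the other ETS form, was found in 3 (2.27%, beside 2.16%), the KLF sequence CCGCCCC in 2 (1.52%, beside 1.97%), and the glucocorticoid receptor consensus and the HNF4 sequence CAAAGTCCA in 1 each (0.76%, beside 1.45% and 0.14%). The sequence of grainyhead-like factors, AACCGGTT or AACCAGTT, was in none of the 132, and in 0.52% of all peaks. Most of these differences are a few peaks wide. The 2 ETS forms share the letters GGAAG, so their flanks, not the core, tell them apart.

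**Figure D5:**
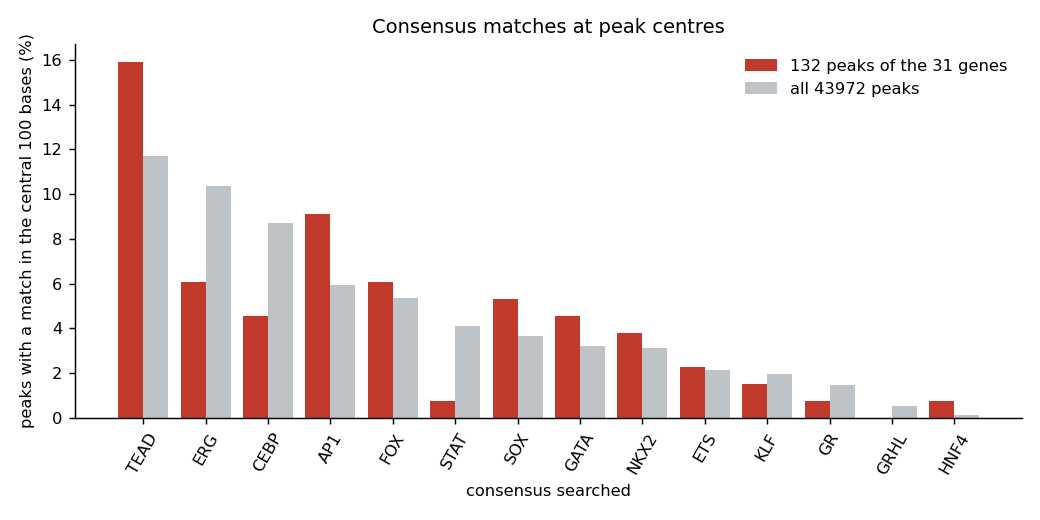
Bars give the percent of peaks whose central 100 bases hold each of the 14 consensus sequences on either strand, for the 132 peaks of the list and for all 43972 peaks. TEAD and AP-1 matches are higher in the list (15.9% and 9.09%) than in all peaks (11.7% and 5.94%), and ERG, C/EBP and STAT matches are lower.

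Promoters with and without a peak were compared for base composition in the 300 bases around each annotated start, averaged over the starts of a gene. Over all genes, those with a promoter peak had a median of 17.4 CpG dinucleotides and those without one 10. Within the list the medians were 13.8 for the 10 genes with a promoter peak and 14 for the 21 without. The range was wide in both: Cldn15, with 6.5, and Tjp1, with 42.3, had promoter peaks, while Cldn8, with 0, and Cgnl1, with 31.5, had none. Cldn3 and Cldn4 had promoter peaks at 9 CpG each, below the median of all genes without a peak.

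Beside these 31 genes, a list of 47 further names of the junction machinery was examined, of which 45 were matched. A peak was assigned to 33 of the 45 (73.3%), beside 46.9% of all genes and 71.0% of the 31. Their territories were wider, with a median of 94.0 kb, beside 59.0 kb for the 31 and 46.4 kb for all genes. Per 100 kb of territory the 45 held 3.59 peaks. The 31 held 5.66, or 4.71 without Tjp1, and all genes held 2.29. The median was 4 peaks, and 15 genes (33.3%) had a promoter peak, beside 21.5% of all genes. Ctnna1 and Ctnnd1, encoding the catenins alpha-1 and p120 of adherens junctions, had 15 each, and Jup, encoding plakoglobin, had 13 in a territory of 27.9 kb. Cdh5, the endothelial cadherin, had 13 peaks (10 and 12), beside the 12 of Cldn5 and the 7 of Cdh1. The further claudins Cldn13, Cldn17, Cldn24 and Cldn34c4 had 0, as had Lsr, which encodes a protein of tricellular corners.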

How the data were processed

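The data were EP300 ChIP-seq peak lists of 2 libraries of newborn mouse lung. Per the notes deposited with the libraries, reads were aligned to mm10, peaks were called per library and on the pool of both, and conservative and optimal sets were made by the irreproducible discovery rate. Aligner and peak caller are not given in the sources used here, and a control experiment named in the labels was not analysed here. Each peak's signal was used as the authors deposited it, its scaling being unstated, and served only to rank, filter and describe peaks. The deposited score and q columns were not used.

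The optimal set held 43988 peaks, of which 43972 lay on the 21 chromosomes and 36743 were within 100 kb of a start. Summits were assigned to the nearest of the 54327 start sites of protein-coding transcripts of 21853 protein-coding genes (GENCODE vM21). A summit within 1 kb of a start made a promoter peak. Each library was represented by its strongest 43988 peaks, and peaks were matched by summits within 100 bp. Consensus sequences were searched on both strands in the central 100 bases. RefSeq starts and promoter sequence (GRCm38.p6) were used for Cldn18 and Cldn10, and 24 of the 31 genes were in the RefSeq promoter table. The code was tested on simulated data.

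All 31 genes were accounted for. Full values were given for the 5 lung claudins and for other genes with at least 5 peaks, at most 12 of them, and sequences for the 5 and for the 3 others with most peaks, ties going to the strongest peak. Values of 1 gene of the wider junction list are not reported here. The genes and lists were chosen with earlier results of these data known. No test was made, since there was 1 group and genes are not replicates. Python 3.11.15 with numpy 2.4.6, pandas 2.3.3 and matplotlib 3.10.9 was used.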

Additional observations from a re-analysis of the deposited data

How the results depend on the processing

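In each of 10 alternatives that gave both class means, the mean of the lung claudins stayed above that of the other claudins, and the number of genes with a peak ran from 17 to 30. Each library alone gave lung claudin means of 8.2 to 9.6, medians of 7 to 9 and other claudin means of 1.4 to 1.47. With the stronger 50% of peaks, 6 genes had a promoter peak, 78 peaks were assigned, and the lung claudin mean was 5, with an other claudin mean of 0.8 and median of 0. Within 10 kb, 54 peaks were assigned, with a lung claudin median of 3 and mean of 4 and an other claudin median of 0 and mean of 0.73. Within 50 kb the other claudin median was 0 and the mean 1.13. Counting every peak within 100 kb of each gene gave a sum of 286, in which a peak near several listed genes counted for each. The lung claudin median was then 14 and the mean 17.8, and the other claudin median 5 and mean 5.6. The neighbours Cldn3 and Cldn4, whose 100 kb reaches overlap, had 28 and 29 in this count, so that their values are not separate. With each gene given only the start of its gene record, the other claudin median was 0. The other claudin mean was 1.27 in the conservative set, 1.47 with overlapping peaks merged and 1.67 with GENCODE basic transcripts, an alternative chosen after seeing the data. Without Cldn1, Cldn7, Cldn12 and Cldn23, which many epithelia express, the other claudin median was 0 and the mean 1.18. Tjp1 had 20 peaks within 50 kb and 7 within 10 kb. With overlapping peaks merged Tjp1 had 32 peaks, Cdh1 6, Cldn3 4 and Cldn12 2. The unknown depth limits what a count of 0 can show, the nearest start is not a measured link, and the 2 libraries share a donor record.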
